A study of Mus musculus with 12 samples.

Results

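Mpo, Elane, Prtn3, Ctsg, Ms4a3 and Cebpe are genes of the early granulocyte, the precursor of the neutrophil, and were followed here in T cells of mouse spleen. They were taken by symbol, as genes known for the primary granules and the promyelocyte stage, and are 6 of the 49315 genes in the count table. Members and gene lists were chosen with earlier results of these data known, so shares set against all genes are a description only. All 6 had enough counts to be tested in each of the 5 comparisons below.

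RNASeq was performed on splenic T cells of 12-week-old male mice that received angiotensin II (Ang II, 490 ng/kg per day) or sham buffer from osmotic minipumps for 14 days. Mice were wild-type (WT) or lacked miR-214 in all cells (miR-214-/-), and the study's resource list gives a mixed S129/C57 background for both genotypes. There were 4 groups, WT sham, WT Ang II, miR-214-/- sham and miR-214-/- Ang II, with 3 mice and 3 libraries in each. T cells were obtained by magnetic negative selection, in which other cells are bound and removed, so cells that escape binding remain in the sample. Mir214 had 0 counts in all 12 libraries and Dnm3os, the non-coding gene around it, had 1 count over all libraries. Since a mature miR has no poly(A) tail and is lost in the capture of mRNA, the genotype could not be checked in this way.

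Neutrophil precursors fill their granules in waves. Promyelocytes make myeloperoxidase and a set of serine proteases for the primary (azurophil) granules, and these transcripts are shut off as the cells mature, whereas lactoferrin, cathelicidin and other proteins of the later granules follow at the next stages. Their mRNA therefore marks dividing precursors rather than mature blood neutrophils, and in mice such precursors are found in the bone marrow and, to a smaller extent, in the spleen. T cells are not known for making these enzymes.

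Total counts per library were between 21126874 and 29605988. The 10 T cell markers examined were detected in every library, with summed levels between 2895 and 5093 CPM (library-size-scaled counts, with TMM factors of edgeR). Genes of other blood cells were detected as well, and no gene of the marker lists for red-cell precursors, mature neutrophils, basophils and mast cells, monocytes and macrophages, progenitors, megakaryocytes or B cells was at 0 in any library. Some libraries stood apart within their group. The summed level of 13 later granule and mature neutrophil genes was 744.8, 3493 and 399.0 CPM in miR-214-/- Ang II replicates 1, 2 and 3, and B cell markers were higher in WT sham replicate 1 (341.3 CPM) and miR-214-/- Ang II replicate 2 (431.5 CPM) than in the other 10 libraries (54.9 to 169.6 CPM). In these bulk samples, fewer cells of a type and less RNA per cell cannot be told apart.

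The promoters of these genes are shown first, with a short sequence that can be seen by eye in each window found. A relation of this sequence to the levels of the members was not tested. RefSeq windows of GRCm38.p6, from 250 bases before to 50 bases after the start of transcription, matched 5 of the 6 members. Cebpe had no matching entry. Each line gives 30 bases on the strand of the gene, 5′ to 3′, with the letters GGAAGT in capitals. GGAAGT is a form of the core of the ETS family, as bound by PU.1, a factor required for granulocyte and macrophage development. No annotated exon overlapped the 30 bases printed. Those of Prtn3 lie inside the annotated gene (chr10:79874476-79883174), whose annotated start is upstream of the RefSeq start.

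Mpo (chr11:87793550-87793579, plus strand): tggagagagagaGGAAGTtgcctttgtccc
Elane (chr10:79886217-79886246, plus strand): gtgtcccagggaGGAAGTagggctgtggcc
Prtn3 (chr10:79879562-79879591, plus strand): aaactggaaggaGGAAGTgggacccacagc
Ctsg (chr14:56102762-56102791, minus strand): agaggaagaaaaGGAAGTagtcacctgttt
Ms4a3 (chr19:11640889-11640918, minus strand): tggtatacttggGGAAGTgggtgggccatt

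The first base of GGAAGT lay 222 bases before the RefSeq start in Mpo, 83 in Elane, 93 in Prtn3, 205 in Ctsg and 55 in Ms4a3. The letters were searched on both strands and occurred in 5 of 5 member windows, and in 23.8% of 32851 promoter windows of the same length. The longer AGGAAGT, which contains GGAAGT, occurred in 4 of 5 member windows and in 9.35% of all windows. Letters for other factors of the granulocyte line were less regular. TTGCNNAA, as bound by C/EBP factors, was in 1 of 5 (Ms4a3, after the start) against 10.8% of all windows, AACGG, as bound by MYB, in 2 of 5 (Elane and Prtn3) against 17.4%, and TGTGGT, as bound by RUNX factors, in 1 of 5 (Ctsg) against 16.8%. The motifs were chosen after the windows had been read, and the matches are a description of letters with no test.

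The 6 genes lie at 5 places on 4 chromosomes of GRCm38. Mpo (ENSMUSG00000009350) spans chr11:87793581-87804413 on the plus strand with 14 exons in its longest transcript. Elane (ENSMUSG00000020125, chr10:79886247-79888215) and Prtn3 (ENSMUSG00000057729, chr10:79874476-79883174) stand side by side on the plus strand with 3073 bases between them. Ctsg (ENSMUSG00000040314, chr14:56099881-56102574) and Cebpe (ENSMUSG00000052435, chr14:54710360-54712174, 2 exons) are on the minus strand of the same chromosome, and Ms4a3 (ENSMUSG00000024681, chr19:11629496-11640851) is on the minus strand of another. The antisense gene Gm11505 lies inside Mpo, and Plppr3 on the minus strand overlaps the first bases of Prtn3. The strand setting of the counting is not given in the sources used here, so reads of these overlapping pairs could be shared or lost. Gm11505 had between 6 and 105 counts per library against 784 to 11960 counts of Mpo.

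Per kilobase of exon the members were not equally abundant. Mean levels over the 12 libraries were 61.8 RPKM (CPM divided by the length in kilobases) for Mpo, 37.9 for Elane, 26.2 for Prtn3, 22.5 for Ctsg, 3.74 for Ms4a3 and 3.07 for Cebpe, on the joined exons of each gene. Mpo exceeded Elane, Elane exceeded Prtn3 and Ctsg exceeded Ms4a3 in 12 of 12 libraries. Prtn3 exceeded Ctsg in 7 of 12 and Ms4a3 exceeded Cebpe in 7 of 12, so these neighbours in the order did not differ beyond their spread. With the longest transcript as the length, Prtn3 (44.2 RPKM) came before Elane (37.9 RPKM) in 8 of 12 libraries, so the order of this pair depends on the annotated length. Among 30080 genes with a count and a length, Mpo stood between the 82.7th and the 90.5th percentile of level per kilobase in WT sham libraries and between the 98.1th and the 99.0th in WT Ang II libraries. The T cell receptor chain Cd3e had a mean of 105.7 RPKM in WT sham and 74.7 RPKM in WT Ang II. Mpo had 13.7 ± 5.07 and 107.2 ± 28.7 RPKM in these groups (SD, n = 3). Of the T cell markers, Trac (411.7 RPKM), Cd8b1 (181.7), Lat (150.4), Thy1 (132.1) and Cd3d (121.1) were above Mpo in WT Ang II. Cd3e, Cd3g, Cd247, Cd4 and Cd8a were below it. With the longest transcript as the length, Mpo had 133.5 and Cd3e 119.5 RPKM in WT Ang II.

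The first comparison was of Ang II with sham in WT T cells. All 6 genes rose, by 6.19-fold (Cebpe) to 10.9-fold (Ms4a3), and in each of them every Ang II library was above every sham library. For reference, 7.01% of the 16012 genes tested were called higher, and 19.1% had every Ang II library above every sham library. The median log2 fold change was 3.06 over the 6 members and -0.016 over all genes tested. Calls required an adjusted p under 0.05 by edgeR's quasi-likelihood test together with a log2 fold change above 1 or below -1, and errors of fold changes are standard errors (SE) on the log2 scale. A permutation test of 3 libraries against 3 cannot go below p = 0.1, so no single-gene permutation p is given.

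Mpo encodes myeloperoxidase, the haem enzyme of the primary granule that makes hypochlorous acid. It was at 34.2, 66.6 and 39.6 CPM in the WT sham libraries and at 417.7, 254.1 and 429.8 CPM in the WT Ang II libraries. The lowest Ang II library, replicate 2, was still well above the highest sham library, also a replicate 2. The change was 3.00 ± 0.32 on the log2 scale (SE, 7.98-fold, adjusted p = 0.00277).

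Elane, Prtn3 and Ctsg encode neutrophil elastase, proteinase 3 and cathepsin G, serine proteases that are stored active in the same granule. Elane was at 5.10, 13.5 and 6.15 CPM in WT sham and at 65.0, 42.7 and 89.97 CPM in WT Ang II. Prtn3 was at 5.28, 14.2 and 8.43 CPM in WT sham and at 111.8, 47.8 and 91.3 CPM in WT Ang II. For each protease, sham replicate 2 was the highest of the sham libraries and Ang II replicate 2 the lowest of the Ang II libraries, the order also seen for Mpo. Ctsg was at 3.93, 5.87 and 4.46 CPM in WT sham and at 48.2, 28.3 and 43.4 CPM in WT Ang II. The log2 fold changes were 3.02 ± 0.44 for Elane (SE, adjusted p = 0.00733), 3.19 ± 0.44 for Prtn3 (adjusted p = 0.00646) and 3.09 ± 0.26 for Ctsg (adjusted p = 0.0013). Ctsg had the smallest adjusted p of the 6 members.

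Ms4a3 encodes a four-span membrane protein used as a marker of granulocyte and monocyte progenitors. It was at 1.05, 1.51 and 0.91 CPM in WT sham, from 20 to 38 counts, and at 12.1, 7.20 and 17.9 CPM in WT Ang II, from 202 to 423 counts. Its change was the largest of the members in this comparison, at 3.44 ± 0.40 on the log2 scale (SE, 10.9-fold, adjusted p = 0.00366).

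Cebpe encodes C/EBP epsilon, the transcription factor that drives the step from promyelocyte to later stages and the genes of the later granules. It was at 1.31, 1.47 and 0.73 CPM in WT sham and at 12.9, 2.67 and 5.85 CPM in WT Ang II. The Ang II libraries differed among themselves by more than those of the other members, and replicate 2 was again the lowest. The change was 2.63 ± 0.60 on the log2 scale (SE, 6.19-fold, adjusted p = 0.0276). This call was lost without WT sham replicate 1, 2 or 3 or without WT Ang II replicate 3, with adjusted p between 0.0679 and 0.091, while the other 5 members stayed called when any single library was left out. Without WT Ang II replicate 1 the change of Cebpe was 1.87 and stayed called (adjusted p = 0.025), and over all fits without a library it ranged from 1.87 to 3.02.

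**Figure D1:**
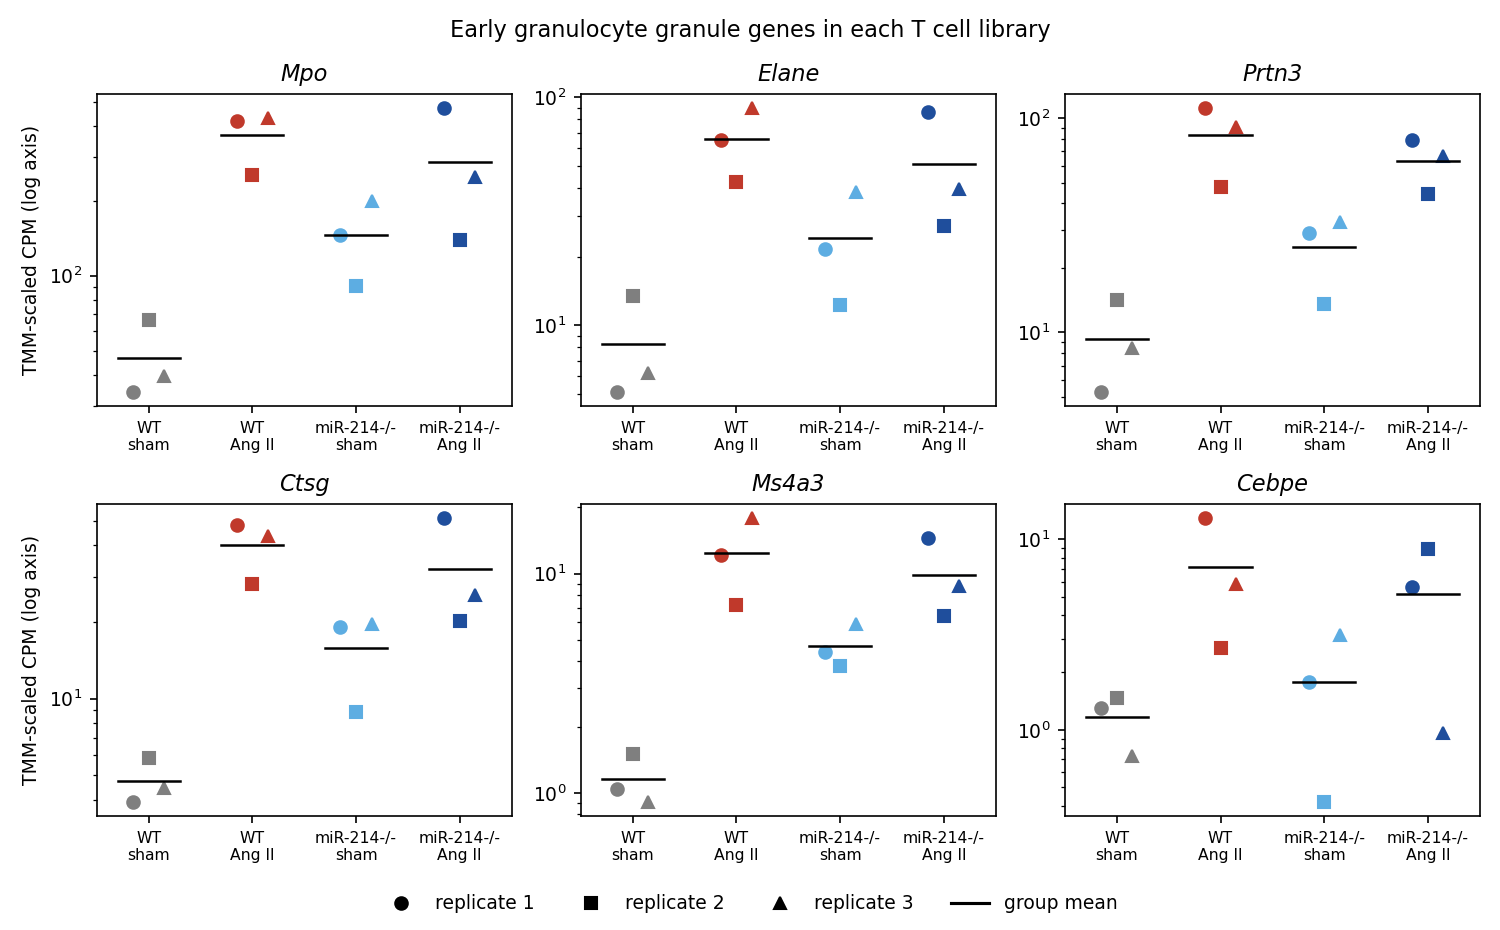
Level of each member in every library, as TMM-scaled CPM on a log axis with its own range for each gene; points are libraries, with the replicate as the marker shape, and lines are group means (n = 3). In WT every Ang II library lies above every sham library for all 6 genes, and the miR-214-/- sham libraries of Mpo, Ctsg and Ms4a3 lie above those of WT sham.

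The same comparison in miR-214-/- T cells gave smaller differences and no call. None of the 15937 genes tested was called by edgeR (background 0.0%), although 1939 had an unadjusted p under 0.05 and DESeq2's Wald test called 51. The members had log2 fold changes between 0.99 (Mpo) and 1.52 (Cebpe), with a median of 1.09 against 0.028 for all genes and adjusted p between 0.279 and 0.51. In 3 of the 6, Prtn3, Ctsg and Ms4a3, the groups did not overlap, against 8.86% of all genes with every Ang II library higher.

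Mpo was at 145.2, 91.3 and 199.3 CPM in miR-214-/- sham and at 472.2, 138.9 and 248.9 CPM in miR-214-/- Ang II. Replicate 1 of the Ang II group had the highest Mpo level of all 12 libraries, and replicate 2 lay below 2 of the sham libraries. The difference was 0.99 ± 0.46 on the log2 scale (SE, adjusted p = 0.443). Without miR-214-/- Ang II replicate 1 it was 0.41, and over all fits without a library it ranged from 0.41 to 1.31.

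Among the proteases, Elane was at 21.7, 12.3 and 38.2 CPM in miR-214-/- sham and at 86.3, 27.2 and 39.7 CPM in miR-214-/- Ang II. Prtn3 was at 29.0, 13.6 and 32.8 CPM in sham and at 79.4, 44.3 and 66.4 CPM in Ang II, without overlap. Ctsg was at 19.1, 8.83 and 19.7 CPM in sham and at 51.3, 20.2 and 25.6 CPM in Ang II, where the lowest Ang II library was just above the highest sham library. The log2 fold changes were 1.09 ± 0.53 for Elane (SE, adjusted p = 0.45), 1.34 ± 0.35 for Prtn3 (adjusted p = 0.279) and 1.04 ± 0.43 for Ctsg (adjusted p = 0.404). Without miR-214-/- Ang II replicate 1 they were 0.47, 1.13 and 0.53. Over all fits without a library, Elane ranged from 0.47 to 1.59, Prtn3 from 1.04 to 1.58 and Ctsg from 0.53 to 1.28.

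Ms4a3 was at 4.40, 3.81 and 5.87 CPM in miR-214-/- sham and at 14.5, 6.40 and 8.78 CPM in miR-214-/- Ang II, a difference of 1.08 ± 0.33 on the log2 scale (SE, adjusted p = 0.315). Cebpe was at 1.79, 0.42 and 3.15 CPM in sham and at 5.61, 8.90 and 0.96 CPM in Ang II, a difference of 1.52 ± 0.87 (SE, adjusted p = 0.51) that ranged from 0.87 (without miR-214-/- Ang II replicate 2) to 2.22 (without miR-214-/- sham replicate 3) when a library was left out. Ms4a3 and the 4 granule enzymes were highest in Ang II replicate 1 and lowest in replicate 2, whereas Cebpe was highest in replicate 2 and lowest in replicate 3. DESeq2 called Prtn3 (adjusted p = 0.00177) and Ms4a3 (adjusted p = 0.0388) in miR-214-/- and none of the other 4 members.

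The sham groups were then compared between the genotypes. edgeR called 3 of 15913 genes (0.0189%), none of them a member and none of them higher in miR-214-/-. All 6 members nevertheless had positive log2 fold changes, with a median of 1.59 against -0.009 for all genes. In Mpo, Ctsg and Ms4a3 every miR-214-/- sham library was above every WT sham library, which 5.39% of all genes showed. Mpo, for example, was at 34.2 to 66.6 CPM in WT sham and at 91.3 to 199.3 CPM in miR-214-/- sham. Elane and Prtn3 overlapped in WT sham replicate 2 and miR-214-/- sham replicate 2.

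Ms4a3 had the smallest p of the members between the sham groups, with a log2 fold change of 2.01 ± 0.28 (SE, unadjusted p = 0.000125, adjusted p = 0.249) and rank 8 among the 15913 genes. Ctsg (1.73 ± 0.32) and Mpo (1.63 ± 0.33) had an adjusted p of 0.701 each, as had Elane (1.54 ± 0.48) and Prtn3 (1.43 ± 0.42). Cebpe differed least, by 0.62 ± 0.62 (SE, adjusted p = 0.909). The absence of a call depended on the tool and the filter. DESeq2 called Mpo (adjusted p = 0.0347), Ctsg (2.15e-06) and Ms4a3 (5.18e-06), and edgeR without a filter on low counts called Mpo (0.0447) and Ms4a3 (0.0243). These fits called 45 and 9 genes in all. Without miR-214-/- sham replicate 2, edgeR called Ctsg (2.03 on the log2 scale, adjusted p = 0.0366) among 13 genes.

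After Ang II the genotypes did not differ detectably in these genes. edgeR called 0 of 16215 genes (0.0%), with 1388 at an unadjusted p under 0.05 and 21 called by DESeq2. The 6 members were between 0.30 (Ctsg) and 0.47 (Cebpe) lower on the log2 scale in miR-214-/-, with SE from 0.34 to 0.82 and adjusted p between 0.664 and 0.839. The groups overlapped for each of the 6. Of all 16215 genes, 1299 had every miR-214-/- Ang II library above every WT Ang II library, and the opposite separation was not counted. The highest Mpo, Ctsg and summed member levels of the experiment were in miR-214-/- Ang II replicate 1. Elane, Prtn3, Ms4a3 and Cebpe were highest in WT Ang II libraries, and so was the members' mean log2 CPM (5.74 in replicate 1).

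The interaction, the difference between the Ang II effect in miR-214-/- and that in WT, was fitted over all 12 libraries. edgeR called 1 of 16770 genes at an adjusted p under 0.05 (0.00596%), and this gene was not a member. Interaction terms of the members were all negative, from -2.34 ± 0.54 for Ms4a3 (SE, adjusted p = 0.213) over -2.04 ± 0.54 for Ctsg (0.213), -1.99 ± 0.61 for Mpo (0.226), -1.91 ± 0.74 for Elane (0.283) and -1.83 ± 0.60 for Prtn3 (0.237) to -1.09 ± 1.15 for Cebpe (0.666). Their median was -1.95, against 0.014 for all genes. The term is made from all 4 groups, so the genotype differences in sham and in Ang II both enter it. When replicate 1 of miR-214-/- Ang II was left out, 919 genes were called for the interaction by edgeR, among them Mpo (-2.55, adjusted p = 0.0288), Ctsg (-2.54, 0.0206) and Ms4a3 (-2.72, 0.0219). DESeq2, on all 12 libraries, called Ctsg (adjusted p = 0.00595) and Ms4a3 (0.00249) among 444 genes.

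**Figure D2:**
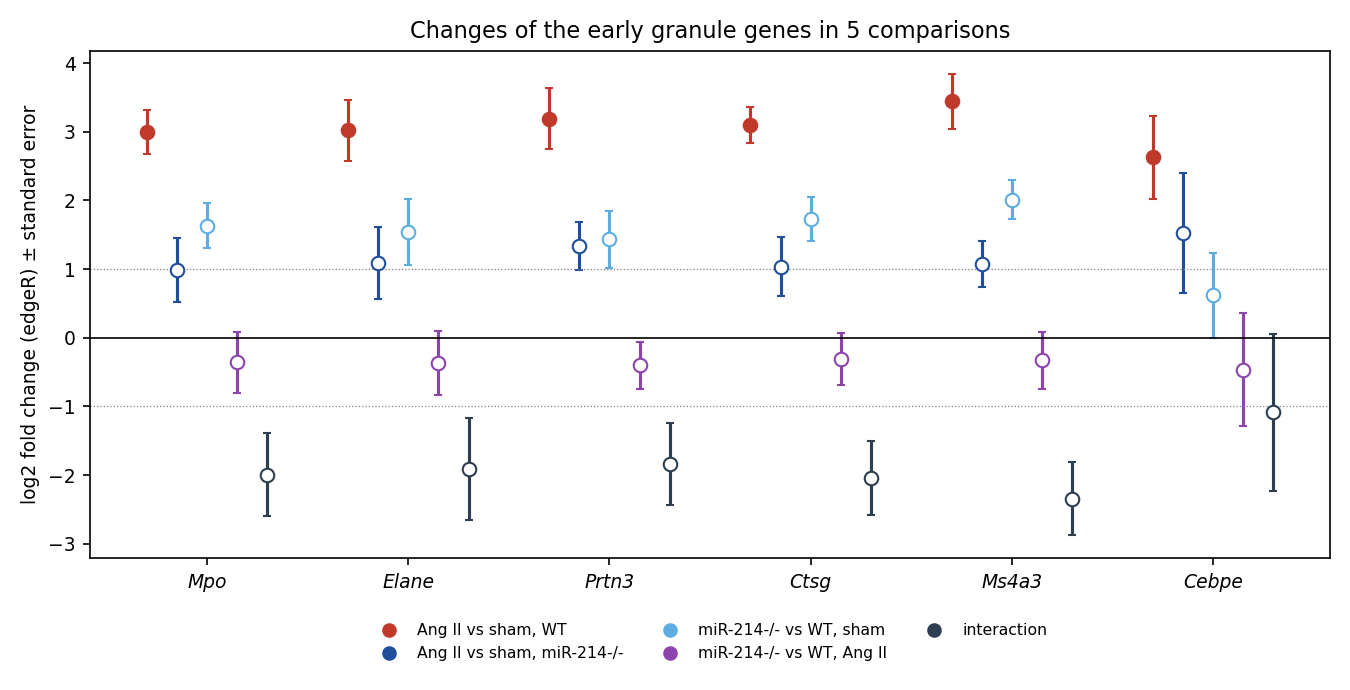
Log2 fold change of each member in the 5 comparisons by edgeR's quasi-likelihood test; bars are standard errors, filled points were called and open points were not, and dotted lines mark the fold limit of 1. The filled points are the 6 members in WT, between 2.63 and 3.44.

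The members were next compared with each other across the 12 libraries. Relative to Mpo, the counts of Elane, Prtn3, Ctsg and Ms4a3 varied by 1.56- to 2.15-fold over the libraries, and those of Cebpe by more. Differences of these ratios between the groups were not tested. Counts within a library were set against Mpo, a ratio that does not depend on library size. Elane had between 13.4 and 20.9 counts per 100 counts of Mpo, a range of 1.56-fold, although Mpo itself ranged from 34.2 to 472.2 CPM. Ctsg had between 8.82 and 14.5 counts per 100 of Mpo (1.65-fold), Ms4a3 between 2.26 and 4.61 (2.04-fold) and Prtn3 between 14.9 and 31.9 (2.15-fold). The highest ratio of Prtn3, Ctsg and Ms4a3 was in miR-214-/- Ang II replicate 2.

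Cebpe had between 0.39 counts per 100 of Mpo, in miR-214-/- Ang II replicate 3, and 6.41, in miR-214-/- Ang II replicate 2, a 16.6-fold range within a single group. Lactoferrin (Ltf), a protein of the later, specific granules, varied in a similar way, with 15.3 to 381 counts per 100 of Mpo (25.0-fold) and its highest value in the same library. Against Camp, the cathelicidin gene of the later granules, Cebpe was less variable, at 5.33 to 20.7 counts per 100 of Camp (3.88-fold). Counts behind the Cebpe values were low, from 9 to 368 per library.

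**Figure D3:**
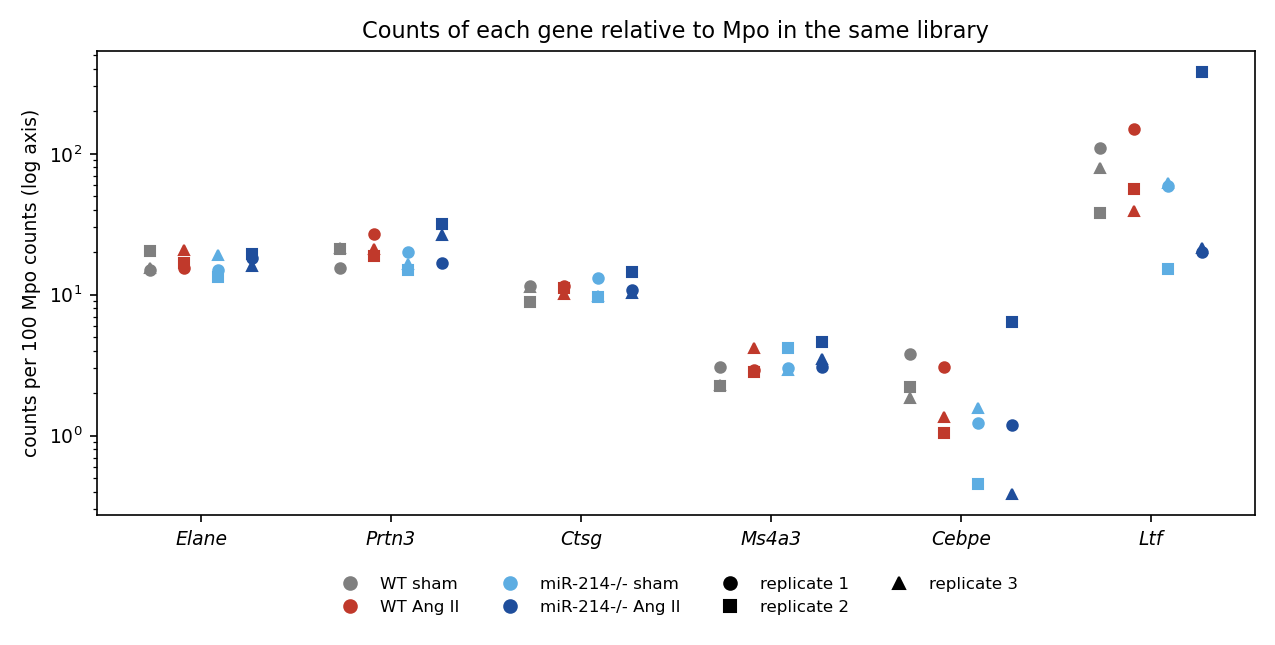
Counts of 5 members and of Ltf per 100 counts of Mpo in the same library, on a log axis; each point is a library, with color for the group and shape for the replicate. Elane, Prtn3, Ctsg and Ms4a3 spread over 1.56- to 2.15-fold, whereas Cebpe spreads over 16.6-fold and Ltf over 25.0-fold.

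Correlations over the 12 libraries described the same split. Pearson's r of log2 CPM was between 0.957 and 0.990 for the 10 pairs among Mpo, Elane, Prtn3, Ctsg and Ms4a3, and between 0.656 and 0.723 for the 5 pairs with Cebpe. The libraries of a group share treatment and genotype, so the group differences enter each r, and no p is given. Of 13758 genes with a mean log2 CPM above 0, members left out, those most like the mean profile of the 6 members were Ctdspl (r = 0.967), Ctbp2 (0.967), Emilin2 (0.964), Gas2l3 (0.961), Ckap4 (0.958), Gstm1 (0.958), Ogfrl1 (0.957), Adgrg3 (0.956), Palm (0.955) and Cd93 (0.955). Ctbp2, which encodes a transcriptional co-repressor, was among the 3 most similar genes of Mpo, Elane, Ctsg and Ms4a3, with r between 0.945 and 0.978. Prss57, the serine protease known as neutrophil serine protease 4, was among the 3 for Elane (r = 0.949). Genes most like Cebpe were others, namely Card10 (r = 0.968), Itgb2l (0.955) and Camp (0.949), of which Itgb2l and Camp belong to the list of later granule and mature neutrophil genes.

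**Figure D4:**
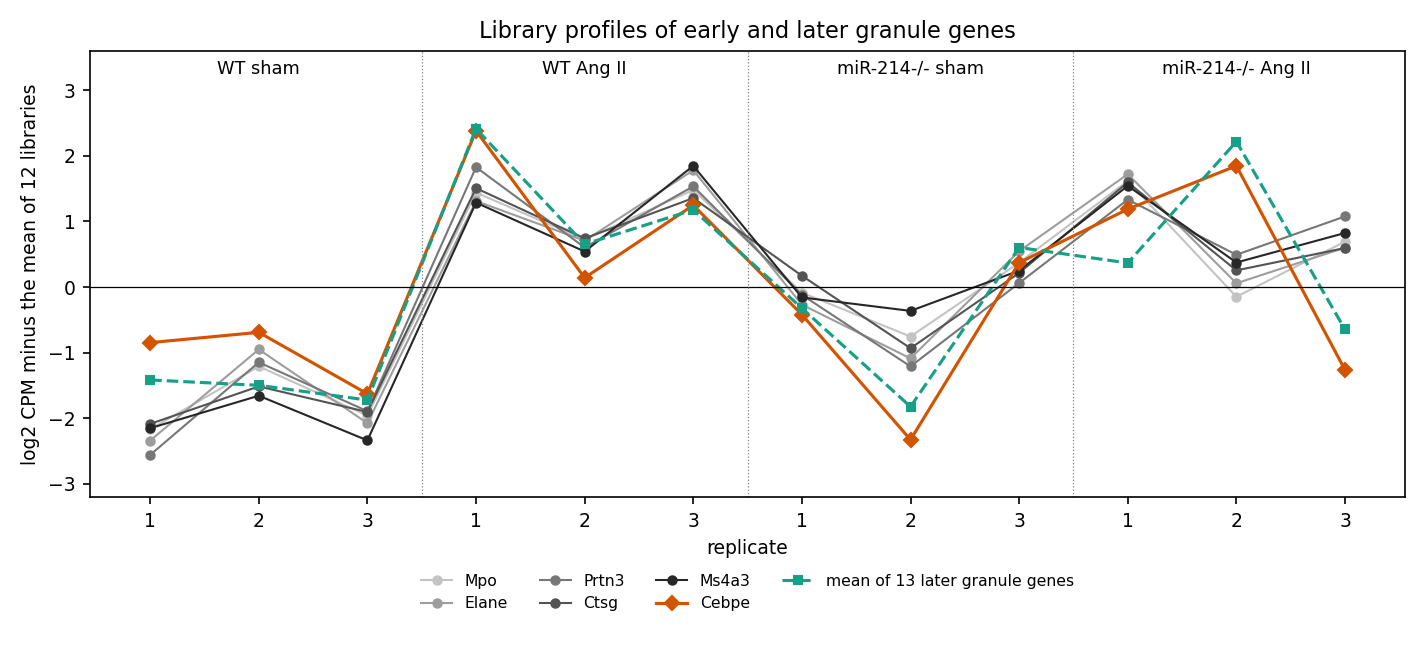
Log2 CPM of each member minus its mean over the 12 libraries, in library order, with the mean of 13 later granule and mature neutrophil genes as a dashed line. The grey and black lines of 5 members run together, and the Cebpe line follows the dashed line in miR-214-/- Ang II replicate 2 and, downward, in miR-214-/- sham replicate 2.

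Other genes of the same stage were examined in a list of 12. In WT 10 of the 12 were called higher after Ang II, against 7.01% of all genes tested. The log2 fold change was positive in 11 of the 12, with a median of 1.71 over the list. Prss57 rose by 2.505 on the log2 scale (adjusted p = 0.00928), Fcnb, which encodes ficolin B, by 3.04 (0.0204) and Trem3, a myeloid receptor, by 2.94 (0.0113). The transcription factors moved less. Cebpa, which encodes C/EBP alpha and commits progenitors to the granulocyte line, rose by 1.07 (adjusted p = 0.0081) and Myb, a factor of dividing progenitors, by 1.002 (0.0268), at the fold limit. Gfi1, a repressor needed for granulocyte maturation that T cells also express, was at -0.31 (adjusted p = 0.155), and Igsf6 was at 1.43 (0.0834). None of the 12 was called in any of the other 4 comparisons, where the median of the list was 0.64 for Ang II in miR-214-/-, 0.55 for miR-214-/- sham against WT sham, -0.41 for miR-214-/- Ang II against WT Ang II and -1.17 for the interaction.

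Genes that process, store or inhibit granule proteins were a list of 7. Ctsc, whose product removes the propeptide of the granule proteases, was at 0.57 (adjusted p = 0.147) and Srgn, the proteoglycan on which granule proteins are packed, at -0.05 (0.659) in WT. The protease inhibitors were the genes of this list that were called higher, Slpi by 2.19 (adjusted p = 0.013) and Serpinb1a by 1.64 (0.0423). The chaperone Calr (0.24, adjusted p = 0.187) and the sorting adaptor subunit Ap3b1 (0.05, 0.642) were not called, and the chaperone Canx passed the p threshold below the fold limit (0.47, 0.0166). T cells express several of these genes themselves, and the summed level of the list was already 1284 to 1502 CPM in WT sham. In the other 4 comparisons 0 of the 7 were called.

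Markers of other cells moved with the members, and their part in the results was not tested. All 13 later granule and mature neutrophil genes rose in WT after Ang II, with a median of 3.18, among them Ltf (3.34, adjusted p = 0.0135), Camp (3.18, 0.022) and Lcn2, which encodes lipocalin 2 (3.45, 0.00845). Their summed level was 190.3 to 230.4 CPM in WT sham, 990.7 to 3495 in WT Ang II, 182.0 to 916.5 in miR-214-/- sham and 399.0 to 3493 in miR-214-/- Ang II. The 6 members together were at 50.9 to 103.1, 382.8 to 678.3, 130.2 to 299.1 and 245.9 to 709.2 CPM in the same groups. The order of libraries by summed level differed between the lists. WT Ang II replicate 1 and miR-214-/- Ang II replicate 2 had the highest later granule levels. The highest summed member levels, in which Mpo has the largest part, were in miR-214-/- Ang II replicate 1 and WT Ang II replicate 3. By mean log2 CPM the members were highest in WT Ang II replicate 1 (5.74), which also led the later granule list (7.07). WT Ang II replicate 3 (5.66) and miR-214-/- Ang II replicate 1 (5.61) came next for the members.

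Of the red-cell precursor list 10 of 14 were called higher in WT, against 7.01% of all genes tested. All 14 had positive log2 fold changes, with a median of 3.09. Their summed level was 556.5 to 588.4 CPM in WT sham and 2342 to 5359 CPM in WT Ang II. Of the basophil, eosinophil and mast cell list 8 of 9 were called higher (median 1.80). Calls were made for 6 of 9 stem and progenitor genes (median 1.33), including Cd34 (2.19, adjusted p = 0.00928), and for 1 of 5 megakaryocyte genes (median 1.21). All genes of these lists had positive log2 fold changes. In all 9 stem and progenitor genes and all 5 megakaryocyte genes every Ang II library was above every sham library, as in 19.1% of all genes tested. Monocyte and macrophage genes moved less, with 2 of 13 called (Ccr2 at 1.41 and Lyz2 at 2.05, the latter also a gene of neutrophils) and Adgre1, which encodes F4/80, at 0.63 (adjusted p = 0.517). Of 12 cell cycle genes 11 were called higher (median 2.27), including Mki67 (2.30, adjusted p = 0.000295), and all 12 had positive log2 fold changes. Their summed level was 515.8 to 630.1 CPM in WT sham and 1742 to 2106 CPM in WT Ang II.

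T cell markers were lower in WT Ang II, without a call, since none passed the fold limit. All 10 had negative log2 fold changes, from -0.35 to -0.62, with adjusted p between 0.0052 and 0.0666, and Cd3e was at -0.48 (0.0137). Of the 7 B cell markers 0 were called in WT (median -0.32). In the other 4 comparisons, 0 genes of each of these lists were called. In miR-214-/- sham, the summed red-cell precursor level was 404.9, 1130 and 982.2 CPM in replicates 1, 2 and 3. The members' summed level was 221.1, 130.2 and 299.1 CPM, lowest in replicate 2 and highest in replicate 3. The later granule level (579.3, 182.0 and 916.5 CPM) and the basophil, eosinophil and mast cell level (198.2, 112.1 and 292.0 CPM) had the members' order. So had the progenitor list. The monocyte and macrophage list had this order by summed level only. By mean log2 CPM it was at 5.36, 5.54 and 5.94 in replicates 1, 2 and 3, lowest in replicate 1. The red-cell precursor, megakaryocyte and cell cycle lists were lowest in replicate 1. How these lists relate to the members was not tested.

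Genes beside the members in the genome were read as a last description. Within 100 kb of the 6 members the annotation of GRCm38 has 46 other protein-coding genes, of which 27 were tested in WT. Among these 27, 5 were called higher after Ang II, against 7.01% of all 16012 genes tested. The median log2 fold change of the 27 was 0.17. The 5 were Epx, eosinophil peroxidase, 59587 bases from Mpo (3.06, adjusted p = 0.0266), Mcpt8, a basophil protease, 14608 bases from Ctsg (2.53, 0.0084), Prss57 near Prtn3 (2.505, 0.00928), Ms4a2, a chain of the high-affinity IgE receptor, 5777 bases from Ms4a3 (1.68, 0.0252) and Palm near Prtn3 (1.38, 0.0189). Epx, Mcpt8 and Ms4a2 belong to the basophil, eosinophil and mast cell list. Other genes close by had too few counts to be tested. Lpo, the lactoperoxidase gene 2015 bases from Mpo, had a mean of 0.16 CPM in WT Ang II, and Cfd, the complement factor D gene 2638 bases from Elane, had 0.23 CPM. Plppr3, which overlaps Prtn3, was at 0.52 (adjusted p = 0.0415), below the fold limit, and the antisense gene Gm11505 inside Mpo was at 2.67 (0.00647). In the other 4 comparisons 0 of the neighbours were called.

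**Figure D5:**
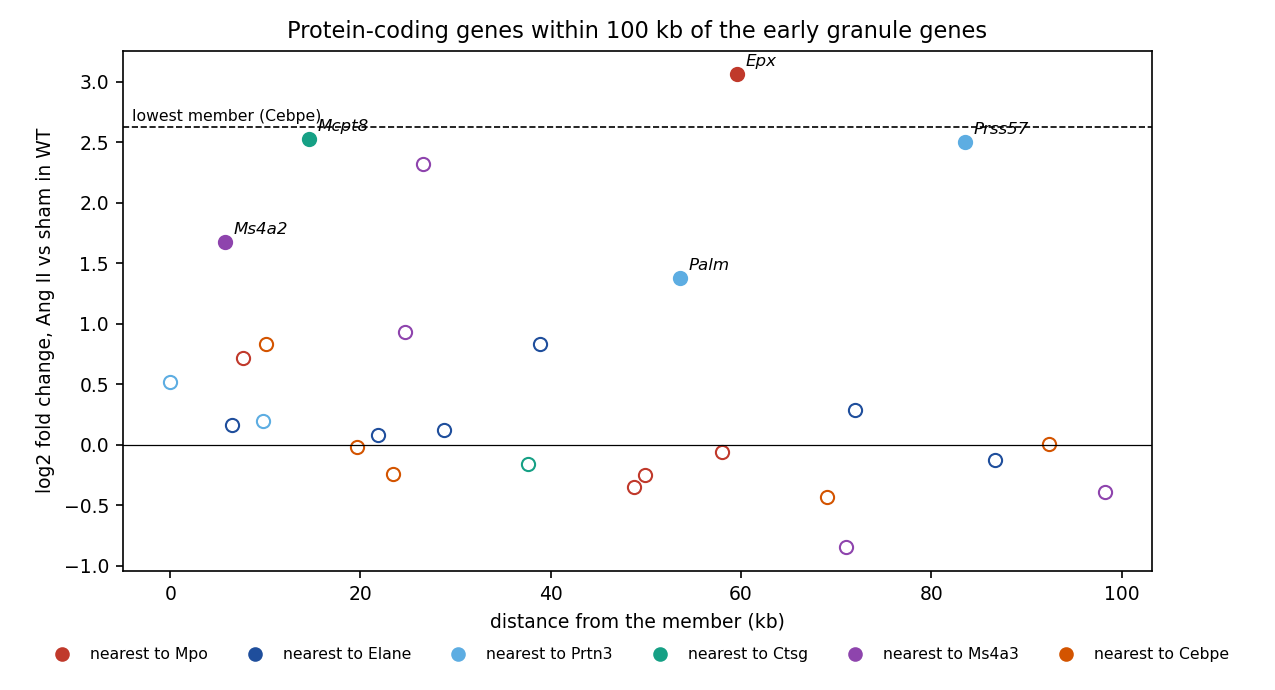
Log2 fold change of WT Ang II against WT sham for 27 tested protein-coding genes within 100 kb of a member, against the distance from the nearest member in kilobases; color gives the nearest member, filled points were called and the dashed line is the lowest member, Cebpe at 2.63. Most neighbours lie near 0, and the 5 filled points are named.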

How the data were processed

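RNASeq libraries of splenic T cells from 12 mice were analysed. The authors trimmed reads with Trimmomatic, mapped them to GRCm38 with STAR and deposited raw counts of unique exonic reads per gene from featureCounts, which the submitters' processing notes place in Subread 1.5.2. Annotation release and strand setting are not given in the sources used here. Reads with several positions were not counted. All 12 columns were used, and 49056 of 49315 identifiers matched GENCODE M21 of GRCm38. The other 259 held 0.0245% of the counts and were kept.

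The count tests were run with edgeR 4.0.16 under R 4.3.3 (filterByExpr on the groups compared, TMM, quasi-likelihood test, Benjamini-Hochberg adjustment over all genes tested). Calls required an adjusted p under 0.05 together with a log2 fold change above 1 or below -1, and for the interaction the adjusted p alone. CPM used TMM-scaled totals of all 12 libraries, and log2 CPM a prior count of 2. The labels give 3 mice per group. Total counts were 21126874 to 29605988 per library, and members had between 9 and 11960 counts. Scripts were tested on simulated data. Tables and plots were made in Python 3.11.15 with pandas 2.3.3, numpy 2.4.6 and matplotlib 3.10.9. Named were the 6 members, the first genes of each list in list order and those with a deviating call, the neighbours within 100 kb that were called, overlap a member or lie nearest to one, and the genes with the highest r, which are given in full for the mean profile and Cebpe only. Members and lists were chosen with earlier results of these data known. Alternatives were DESeq2 1.42.0 (the study's tool), other scalings, filters and fits, the replicate number as a block, and leaving out each library in turn.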

Additional observations from a re-analysis of the deposited data

How the results depend on the processing

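Of 477 refits of a member's log2 fold change under other scalings, filters, fits or tools, or without a library, 454 kept direction and call, 6 lost a call, 13 gained a call and 4 changed sign. In WT all 6 members were called, and 5 or 6 under each alternative. Cebpe was the member lost, with the replicate number as a block (2.42, adjusted p = 0.0523), in a single fit over 12 libraries (2.60, 0.0518) and in 4 of the fits without a library. In miR-214-/- DESeq2 called 2 members after Ang II, among 51 genes in all, and edgeR called 0 members when any single library was left out. Between the sham groups DESeq2 called 3 members and edgeR without a filter 2, and leaving out a library gave 0 to 1. All genes called there were 3 by edgeR, 45 by DESeq2, 9 without a filter and 0 to 30 without a library. DESeq2 called 2 members for the interaction, and leaving out a library gave 0 to 3. All genes called for the interaction were 1 by edgeR and 0 to 919 without a library. Between the Ang II groups 0 members were called under every alternative. The 4 changes of sign were in differences that were not called. Without a library, Cebpe between the sham groups ranged from -0.077 (without miR-214-/- sham replicate 3) to 1.08. Between the Ang II groups Cebpe ranged from -1.11 to 0.29 (without WT Ang II replicate 1), with 0.022 without miR-214-/- Ang II replicate 3, and Ms4a3 from -0.72 to 0.043 (without WT Ang II replicate 3). The cause of these changes was not tested.

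The count of genes called in WT was 1169 by edgeR, 1380 by DESeq2, 3009 by the adjusted p alone and 564 to 1338 without a library, with 605 or fewer without WT sham replicate 1 or 3 or WT Ang II replicate 3. Replicate numbers did not pair the samples by the rule used, a correlation over 0.1 in every pair. Deviations of same-numbered libraries in the groups compared had correlations between -0.56 and 0.20. WT Ang II and miR-214-/- sham, which meet only in the interaction, had 0.34, 0.22 and 0.14. With the replicate number as a block 966 genes and 5 members were called in WT, and 0 members in the other 4 comparisons.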
